A study of Mus musculus with 18 samples.

Results

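The genes described here are the proteasome subunits and the proteins named with them: every gene on the array whose symbol begins with Psma, Psmb, Psmc, Psmd or Psme followed by a digit and that has a probe set mapped to it alone. Where a gene had several such probe sets, the one with the highest mean stood for it. The rule found 44 of the 22180 genes with a probe set of their own, and it used no difference between groups. A filter on low signal asked for a value above the 40th percentile of the array on at least 3 arrays, and 43 of the 44 passed it, among 16337 genes tested in all. The member that did not pass was Psmb11, the catalytic subunit of the thymus, whose log2 value was above that percentile on 2 of 17 arrays. The members were split into 5 immunoproteasome genes (Psmb8, Psmb9, Psmb10, Psme1 and Psme2) and 39 others. 2 of the others match by symbol only and are not subunits: Psmc3ip, a partner of the meiotic recombinases, and Psme3ip1, a protein that binds the activator Psme3. Psma4 was measured only by a probe set shared with another gene and has no value here.

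The cells came from mouse bone marrow. AML cells were GFP+ leukemia cells driven by the MLL-AF9 fusion, sorted from leukemic mice, and LSK cells were normal hematopoietic stem and progenitor cells, sorted as negative for lineage markers and positive for Kit and Sca1. Both carried 4 transgenes, Oct4, Sox2, Klf4 and c-Myc, that doxycycline (Dox) switches on, so the control groups held the same transgenes without Dox. Each cell type had a control group, a Dox group and a group given a reprogramming mixture of 4 compounds named VPA, CHIR, 616452 and TCP, with the treatments lasting 24 h in vitro. This gave 6 groups of 3 arrays. Arrays of 1 group are titled biological repeats, with no word on whether each had its own mouse, so the p-values measure the spread between these arrays, which may be technical. The sources used here give no strain, age, dose, transgene promoter or handling of the control cells. The study asked what happens to leukemia cells, beside normal progenitors, when reprogramming is started.

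The proteasome is the protease that degrades proteins tagged with ubiquitin. Its barrel-shaped core is built of alpha and beta rings, with the active sites on the beta subunits Psmb5, Psmb6 and Psmb7, and a regulatory particle of ATPases and non-ATPase subunits binds, unfolds and feeds in the substrate. Interferon gamma induces the replacement subunits Psmb8, Psmb9 and Psmb10, which take the places of Psmb5, Psmb6 and Psmb7 in the immunoproteasome, and the activator subunits Psme1 and Psme2, and the products supply peptides for MHC class I. Blood cells are known to carry immunoproteasomes also without added interferon, and leukemia cells are sensitive to drugs that block the core.

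Values were log2 RMA signals, in which a difference of 1 is a doubling. Across 17 arrays, the correlation between 2 arrays over all probe sets was 0.979 to 0.989 within a group and 0.904 to 0.979 across groups, whereas LSK compound replicate 1 reached only 0.638 to 0.672 with any other array. Its median signal was 3.24 against 2.65 to 2.75 on the others. That array was left out of the values below unless stated, so LSK compound had 2 arrays. Klf4, 1 of the induced factors, averaged 3.27 in AML control and 9.14 in AML Dox, and 3.83 in LSK control and 8.21 in LSK Dox. The other induced factors did not show such a difference in both cell types: from control to Dox, Pou5f1 (Oct4) averaged 2.91 and 3.58 in AML and 2.98 and 3.13 in LSK cells, Sox2 2.72 and 4.03 in AML and 2.51 and 2.80 in LSK cells, and Myc 8.67 and 4.57 in AML and 9.34 and 8.73 in LSK cells. Whether these probe sets read the transgenes is not stated. Kit was above the signal filter in all 17 arrays, at 6.22, 3.44 and 7.76 in AML control, Dox and compound and at 7.71, 6.95 and 8.57 in the LSK groups in the same order, and Ly6a, which encodes Sca1, had no probe set of its own. The 2 remaining LSK compound arrays also differed from LSK control in sex-linked genes: Xist was 7.32 to 7.35 against 9.28 to 9.56, and the Y-linked genes Eif2s3y, Kdm5d and Uty lay between 4.30 and 5.47, compared with at most 2.67 in every other group. The LSK compound samples therefore differed from the LSK controls in more than the treatment, and the part of this difference in the results below was not tested. The Y-linked genes were also higher, at low signal, in AML compound than in AML control. Their means were 2.47 against 2.02 for Eif2s3y, 2.58 against 2.18 for Kdm5d and 2.35 against 1.91 for Uty. The part of that difference was not tested either.

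The proteasome genes moved most in AML cells given Dox. There 39 members fell and 3 rose out of 43 (limma, adjusted p under 0.05), where 25.6% of all genes tested fell and 23.0% rose (48.6% called in either direction). The median log2 change of the members was -0.75, beside -0.01 for all genes tested. Of the 43 members 13 were called and fell at least 2-fold, beside 10.3% of all genes tested. AML Dox had the lowest group mean for 34 of the 43 members, and the share of all genes with their lowest mean there was not computed. In AML cells given the compounds, 22 members fell and 1 rose (19.2% of all genes fell and 12.8% rose, 32.0% in all), with a median of -0.25. In LSK cells given Dox, 8 fell (9.93% of all genes fell and 9.21% rose, 19.1% in all), with a median of -0.15, and in LSK cells given the compounds 9 fell and 7 rose (20% of all genes fell and 14.2% rose, 34.2% in all), with a median of 0.00. Each treated group shares its control arrays with the other treatment of the same cell type. In AML control against LSK control, 15 members were higher and 2 lower (15.4% and 14.2% of all genes, 29.6% in all).

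These counts depend on leaving out LSK compound replicate 1, which in a fit of all 18 arrays enters the estimate of spread shared by all groups. Psmb8 in AML Dox, for example, kept its log2 change of -1.06 in that fit, with a limma adjusted p of 0.212. In a fit on the AML Dox and AML control arrays alone, 41 members kept their result and 2 lost their call. The same kind of fit for AML compound gave 36 and 7. With all 18 arrays, limma called 9 members in AML Dox, 1 in AML compound, 5 in LSK compound and 3 between the controls, and 0 in LSK Dox, where 0 members had an unadjusted p under 0.05. The LSK Dox count also fell to between 4 and 6 when any 1 of its 6 arrays was left out, and the LSK compound count fell to 9 without LSK compound replicate 3. Because whole cell populations were profiled, a lower level can be fewer cells of a type or less RNA per cell, and these cannot be told apart.

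**Figure D1:**
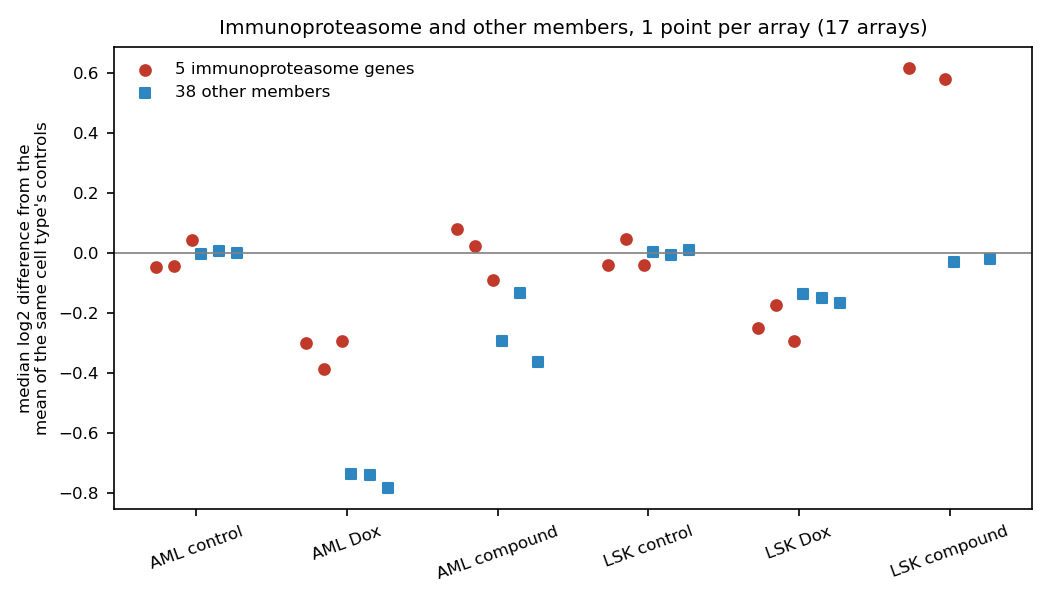
Median log2 difference from the mean of the same cell type's control arrays, for the 5 immunoproteasome genes and for the other 38 members that passed the filter with 1 point per array, on the 17 arrays without LSK compound replicate 1. On the 3 AML Dox arrays the other members sit between -0.78 and -0.74 and the immunoproteasome genes between -0.39 and -0.29, whereas on LSK compound replicates 2 and 3 the immunoproteasome genes sit at 0.62 and 0.58 and the other members near 0.

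The immunoproteasome genes and the rest had different medians in 3 of the 4 treated groups. The median change of the immunoproteasome genes minus that of the other members was 0.48 in AML Dox, 0.32 in AML compound, -0.02 in LSK Dox and 0.62 in LSK compound. These medians are descriptions and carry no test. With all 18 arrays the LSK compound value was 0.80, and on replicate 1 itself the medians were -2.20 for the immunoproteasome genes and -2.59 for the others. In AML Dox the 5 immunoproteasome genes did not move alike. The log2 change was -1.06 for Psmb8, -0.93 for Psmb10, -0.29 for Psme1 and -0.27 for Psmb9. Psme2 averaged 4.47 in AML control and 4.59 in AML Dox. The median of the 5 was therefore the change of Psme1. Psmb8 and Psmb10 fell by more than the median of the other members, which lay between -0.78 and -0.74 on the 3 AML Dox arrays.

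The start regions of 4 immunoproteasome genes are shown because these genes rose together in one group, with that of Psmb5, the constitutive counterpart of Psmb8, for comparison. Each runs from 250 bases before to 50 after the start site in RefSeq's annotation of mouse build GRCm38.p6. Psmb8 lies at chr17:34197945-34198244 on the plus strand, Psmb9 at chr17:34187281-34187580 on the minus strand, Psmb10 at chr8:105938343-105938642 on the minus strand, Psme1 at chr14:55578244-55578543 on the plus strand and Psmb5 at chr14:54617946-54618245 on the minus strand. Capitals mark, on either strand, the ISRE core (GAAA, any 2 bases, GAAA, the element bound by interferon regulatory factors) in the immunoproteasome genes, and CCAAT (bound by NF-Y) or TGACNNNGC (bound by Nfe2l1 and related factors) in Psmb5.
Psmb8: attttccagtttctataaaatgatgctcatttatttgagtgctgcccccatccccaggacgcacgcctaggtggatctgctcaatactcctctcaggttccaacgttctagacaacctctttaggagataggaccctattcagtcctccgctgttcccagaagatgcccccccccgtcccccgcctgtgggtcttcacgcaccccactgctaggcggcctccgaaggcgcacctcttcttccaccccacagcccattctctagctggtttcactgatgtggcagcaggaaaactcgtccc
Psmb9: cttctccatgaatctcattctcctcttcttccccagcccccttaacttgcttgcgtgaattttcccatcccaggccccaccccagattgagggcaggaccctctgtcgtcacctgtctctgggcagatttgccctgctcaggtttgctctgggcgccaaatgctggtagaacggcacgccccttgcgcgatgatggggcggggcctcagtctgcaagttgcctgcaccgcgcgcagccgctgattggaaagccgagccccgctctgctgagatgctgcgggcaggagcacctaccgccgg
Psmb10: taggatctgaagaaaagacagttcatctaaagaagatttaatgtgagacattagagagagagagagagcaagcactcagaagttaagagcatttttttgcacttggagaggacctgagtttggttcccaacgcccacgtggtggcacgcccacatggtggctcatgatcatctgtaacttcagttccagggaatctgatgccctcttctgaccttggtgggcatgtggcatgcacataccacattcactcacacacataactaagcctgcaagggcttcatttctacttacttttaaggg
Psme1: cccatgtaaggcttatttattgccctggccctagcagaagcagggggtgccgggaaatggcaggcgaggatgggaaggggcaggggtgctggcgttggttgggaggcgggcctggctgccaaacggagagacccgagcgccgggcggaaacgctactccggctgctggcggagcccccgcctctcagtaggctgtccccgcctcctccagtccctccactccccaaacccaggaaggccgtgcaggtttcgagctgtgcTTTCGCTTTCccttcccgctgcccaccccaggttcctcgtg
Psmb5: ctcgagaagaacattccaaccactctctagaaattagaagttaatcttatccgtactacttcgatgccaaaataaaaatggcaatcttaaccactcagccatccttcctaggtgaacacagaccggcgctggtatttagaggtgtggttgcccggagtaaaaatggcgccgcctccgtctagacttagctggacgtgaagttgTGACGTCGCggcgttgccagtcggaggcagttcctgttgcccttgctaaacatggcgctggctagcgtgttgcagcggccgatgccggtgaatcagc
Of these windows, Psme1 held the ISRE core at base 9 and Psmb5 held TGACNNNGC at base -47, counted from the start site. The ISRE core was not in the windows of Psmb8, Psmb9 and Psmb10, which says only that these letters are not in these 300 bases.

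Promoter windows matched 37 of the 44 members by Entrez gene ID. The ISRE core was in 1 of the 5 immunoproteasome genes and 3 of 32 other members, against 3.99% of all 27025 genes with a window. TGACNNNGC was in 6 of the 32 other members (18.8%), against 14% of all genes, and CCAAT in 15 of 32 (46.9%) against 41.1%. GGGCGG, the box bound by Sp1, was in 19 of the 32 other members (59.4%) and 3 of the 5 immunoproteasome genes, against 38.2% of all genes. These are matches of letters, read on both strands, and no test was made of them.

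Psmb8 is the chymotrypsin-like subunit of the immunoproteasome. Its log2 level was 9.03, 9.14 and 9.06 in AML control, 8.03, 7.92 and 8.10 in AML Dox and 9.16, 9.12 and 9.08 in AML compound. It was 8.97, 8.90 and 8.85 in LSK control, 8.49, 8.63 and 8.61 in LSK Dox and 9.52 and 9.48 in LSK compound. The AML Dox arrays lay below all others and the LSK compound arrays above all others, with no overlap. Psmb8 fell by 1.06 ± 0.08 (SE) in AML Dox (limma adjusted p = 3.05e-09) and by 0.33 ± 0.08 in LSK Dox (0.0069), and it rose by 0.60 ± 0.09 in LSK compound (3.67e-05). In AML compound its change was 0.04 ± 0.08, with a 95% interval of -0.12 to 0.21.

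Psmb9 and Psmb10 replace the other 2 active subunits. Psmb9 was 6.86, 6.86 and 6.99 in AML control, 6.61, 6.61 and 6.69 in AML Dox, 7.13, 7.19 and 6.82 in AML compound, 6.49, 6.67 and 6.52 in LSK control, 6.40, 6.39 and 6.40 in LSK Dox and 7.51 and 7.56 in LSK compound. Psmb10 was 7.52, 7.61 and 7.63 in AML control, 6.83, 6.69 and 6.46 in AML Dox, 7.37, 7.61 and 7.22 in AML compound, 7.93, 8.03 and 7.98 in LSK control, 7.73, 7.73 and 8.02 in LSK Dox and 8.91 and 9.11 in LSK compound. For both genes LSK compound replicates 2 and 3 were the highest of the 17 arrays and the AML Dox arrays lay below their controls. In LSK compound, Psmb10 rose by 1.03 ± 0.13, or 2.04-fold (limma adjusted p = 8.57e-06), and Psmb9 by 0.98 ± 0.11, or 1.97-fold (1.4e-06). In AML Dox, Psmb10 fell by 0.93 ± 0.12 (3.14e-06). Psmb9 fell there by 0.27 ± 0.10 (0.0276), a call that was lost without AML control replicate 3 (0.108), without AML Dox replicate 1 (0.0727) or 2 (0.0711), and with quantile normalization (0.0658). Neither gene passed the test in AML compound (0.14 and -0.19) or LSK Dox (-0.16 and -0.15).

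Psme1 and Psme2 are the 2 kinds of subunit of the activator ring that interferon gamma induces. Psme1 was 8.47, 8.29 and 8.42 in AML control, 8.20, 8.0 and 8.10 in AML Dox, 8.25, 8.14 and 8.11 in AML compound, 9.25, 9.29 and 9.33 in LSK control, 9.01, 9.15 and 8.97 in LSK Dox and 9.60 and 9.69 in LSK compound. All 9 AML arrays lay below the 8 LSK arrays that were kept. In the controls AML minus LSK was -0.90 ± 0.09 (limma adjusted p = 3.16e-07). Psme1 fell by 0.29 ± 0.09 in AML Dox (0.0092) and rose by 0.36 ± 0.10 in LSK compound (0.00738), a call that was lost without LSK compound replicate 3 (0.077). Psme2 did not pass the test in any of the 9 comparisons. Its probe set varied between arrays of 1 group, from 3.90 to 5.10 in LSK control, and its SE was 0.25 to 0.38 on the log2 scale, so that moderate changes were not detectable.

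**Figure D2:**
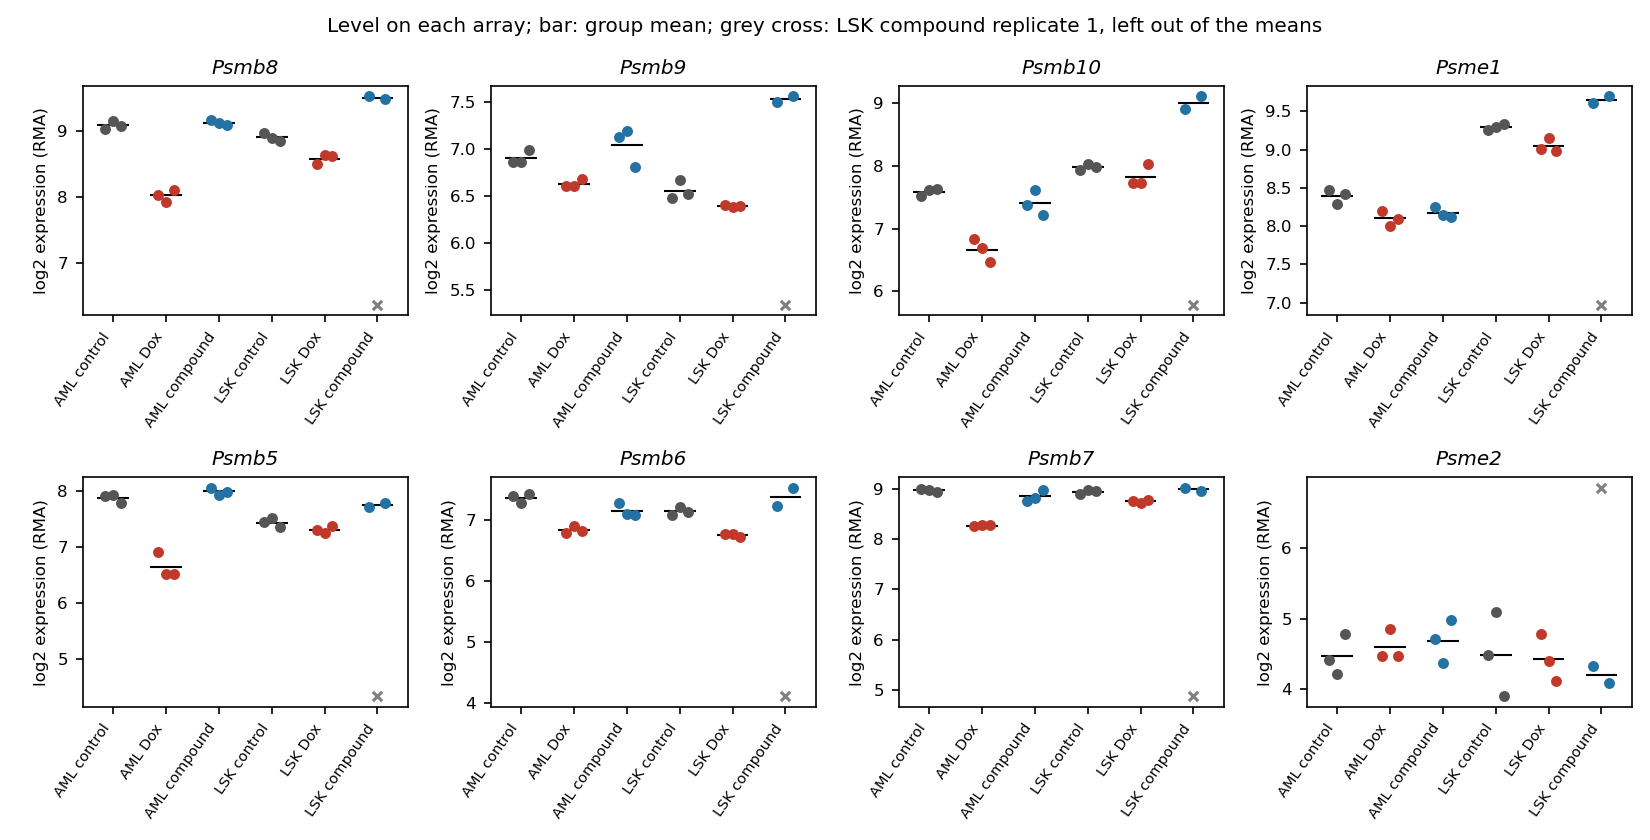
Log2 RMA signal on each array for the immunoproteasome genes and their constitutive counterparts, by group, with the group mean as a line and LSK compound replicate 1 as a grey cross left out of the mean; the vertical axes do not start at 0. Psmb8, Psmb9, Psmb10 and Psme1 are highest on the 2 LSK compound arrays that were kept, while Psmb5, Psmb6 and Psmb7 differ most in AML Dox.

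With LSK compound replicate 1 included, the rises in LSK compound were not called: the log2 change was -0.45 for Psmb8, 0.25 for Psmb9, -0.05 for Psmb10 and -0.54 for Psme1. On that array itself the values were 6.36 for Psmb8, 5.35 for Psmb9, 5.78 for Psmb10 and 6.97 for Psme1, each below every other array of the series for its gene. Psme2 went the other way on that array, at 6.85, above every other array of the series. Its log2 change in LSK compound with all 18 arrays was 0.60, which was not called (limma adjusted p = 0.409). The direction of Psmb8, Psmb9, Psmb10 and Psme1 in LSK compound therefore rests on replicates 2 and 3 alone.

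Genes of neighbouring pathways also rose in LSK compound. All 9 measured genes of an interferon gamma list rose, with a median of 4.18 on the log2 scale, among them the chemokines Cxcl10 (7.81 ± 0.15) and Cxcl9 (5.88 ± 0.15) and the GTPase Iigp1 (6.67 ± 0.17). Of 13 type I interferon genes 12 rose, with a median of 3.17, among them Ifit1 (5.24). Of 10 genes of class I antigen processing 9 rose, with a median of 0.64, among them the peptide transporter Tap1 (1.71 ± 0.09) and the peptide-loading chaperones Tapbp (1.84 ± 0.09) and Tapbpl (2.13 ± 0.15). Irf1, a transcription factor that interferon gamma induces, rose by 3.42 ± 0.12, and Nlrc5, the activator of class I genes, by 2.62 ± 0.15. The genes named here each had a limma adjusted p-value of at most 3.67e-09. The share called higher over all genes tested was 14.2%, with a median of -0.05.

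In AML Dox most type I interferon genes rose while 4 immunoproteasome genes fell. Of the 13 type I interferon genes 9 rose, where 23.0% of all genes rose and 25.6% fell, and the median was 2.16, led by Irf7 (4.43 ± 0.15), Rtp4 (3.82 ± 0.12) and Ifit1 (3.77 ± 0.12). Of the 9 interferon gamma genes 4 rose and 3 fell, with Iigp1 at 2.41 ± 0.16 and Cd274 at -0.71 ± 0.12. Of the 10 class I genes 7 fell and 3 rose, the largest fall being that of the lectin chaperone Calr (-2.50 ± 0.07). Irf1 rose by 0.60 ± 0.11 and Irf2 by 0.83 ± 0.09, while Psmb8 and Psmb10 fell. In AML compound 9 of 13 type I genes and 5 of 9 interferon gamma genes rose, where 12.8% of all genes rose, with medians of 0.59 for both lists, while none of the 5 immunoproteasome genes was called by limma and 1, Psme1, had an unadjusted p under 0.05 (-0.22 ± 0.09, limma adjusted p = 0.0598). In AML compound Psme1 was called as lower under the stricter filter (0.034), with low values set to the filter level (0.0359), with each array centred on its median (0.0496) and without AML control replicate 2 (0.0417), and Psmb9 as higher with quantile normalization (0.0456) and without AML compound replicate 3 (0.0341).

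Marker lists of mature blood cells also had different levels in these groups, with their genes going in different directions. The mean log2 level of 5 monocyte and macrophage markers was 5.95 to 6.08 in LSK compound against 4.83 to 4.90 in LSK control. Only Adgre1 (4.45 in control and 8.69 in compound) and Cd14 (4.88 and 9.69) were higher, while Csf1r (5.81 and 5.35), Ccr2 (6.16 and 4.24) and Mrc1 (3.04 and 2.10) were lower. In AML compound the mean was 6.26 to 6.52 against 4.12 to 4.19 in AML control, and all 5 genes were higher. The mean of 5 dendritic cell markers was 4.89 to 5.19 in LSK compound against 4.29 to 4.48 in LSK control, from the MHC class II genes H2-Aa (6.24 and 7.95) and H2-Ab1 (7.93 and 10.13), with Itgax (2.61 and 2.33), Siglech (2.92 and 2.59) and Xcr1 (2.17 and 2.20) low in both.

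The mean of 4 megakaryocyte and platelet markers was 5.25 to 5.49 in AML compound against 3.04 to 3.24 in AML control. There Ppbp was 10.46 against 2.73 and Pf4 4.56 against 2.93, with Itga2b at 3.13 against 3.44 and Gp9 at 3.46 against 3.42. The mean was 5.28 to 5.34 in LSK compound and 4.58 to 4.73 in LSK Dox against 3.83 to 4.21 in LSK control. In LSK Dox Ppbp (6.41 against 2.80) and Pf4 (4.72 against 4.10) were higher than in LSK control. Itga2b (3.64 against 4.41) and Gp9 (3.91 against 4.66) were lower. The mean of 6 granulocyte markers was below the control of the same cell type in all 4 treated groups. It was 5.58 to 5.63 in AML Dox and 6.48 to 6.62 in AML compound against 7.54 to 7.59, and 6.03 to 6.18 in LSK Dox and 4.14 to 4.35 in LSK compound against 7.58 to 7.93. In AML control, Dox and compound, Mpo averaged 10.54, 6.94 and 7.27, Ctsg 10.60, 4.49 and 8.49, and Elane 9.62, 7.67 and 9.11. Prtn3 was at 10.27, 9.92 and 10.20, Ltf at 2.30, 2.50 and 2.38 and Camp at 2.06, 2.07 and 1.88 in the same order. In LSK cells each of these genes was lower than in control in both treated groups. The mean of 5 T and NK cell markers was between 2.07 and 2.34 in every group, with at most 2 of the 5 above the filter on all arrays of a group. The mean of 5 stem and progenitor markers was 3.55 to 3.63 in AML Dox against 5.30 to 5.50 in AML control. There Kit was 3.44 against 6.22, Cd34 3.44 against 8.67, Cd48 6.08 against 6.78 and Flt3 2.82 against 3.29. Slamf1 was 2.14 against 2.07, below the filter on all arrays of both groups. The part of these differences in the changes of the proteasome genes was not tested.

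The constitutive active subunits Psmb5, Psmb6 and Psmb7 all fell in AML Dox. Psmb5, the target of clinical proteasome inhibitors, was 7.93, 7.94 and 7.79 in AML control, 6.92, 6.52 and 6.52 in AML Dox and 8.06, 7.94 and 7.99 in AML compound. In LSK cells it was 7.45, 7.52 and 7.36 in control, 7.32, 7.25 and 7.38 in Dox and 7.71 and 7.79 in compound. The 3 AML Dox arrays lay below all others, and the AML controls above the LSK controls. Psmb5 fell by 1.23 ± 0.10 in AML Dox (limma adjusted p = 1.63e-08) and was higher by 0.44 ± 0.10 in AML than in LSK control (0.00338). It was at 0.31 ± 0.12 in LSK compound (0.0482), a call that was lost when any 1 of the 5 arrays compared was left out (0.0501 to 0.225) and in several other settings.

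Psmb6 was 7.40, 7.29 and 7.43 in AML control, 6.79, 6.91 and 6.82 in AML Dox, 7.28, 7.11 and 7.08 in AML compound, 7.10, 7.22 and 7.13 in LSK control, 6.77, 6.78 and 6.72 in LSK Dox and 7.24 and 7.53 in LSK compound. Psmb7 was 8.98, 8.97 and 8.94 in AML control, 8.25, 8.28 and 8.27 in AML Dox, 8.75, 8.82 and 8.97 in AML compound, 8.89, 8.98 and 8.95 in LSK control, 8.75, 8.72 and 8.77 in LSK Dox and 9.01 and 8.95 in LSK compound. Psmb6, the caspase-like subunit, was low under Dox in both cell types, and Psmb7, the trypsin-like subunit, was lowest on the 3 AML Dox arrays. Psmb6 fell by 0.53 ± 0.09 in AML Dox (limma adjusted p = 8.56e-05) and by 0.39 ± 0.09 in LSK Dox (0.00562), the largest fall of any member in LSK Dox. Psmb7 fell by 0.70 ± 0.08 in AML Dox (4.74e-07) and did not pass the test in LSK Dox (-0.19 ± 0.08, 0.0962). Neither passed it in either compound group.

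Of the 10 remaining core subunits, 9 fell in AML Dox and 1 rose. All 6 measured alpha subunits fell, with a median log2 change of -0.49, from -0.29 in Psma3 to -0.99 in Psma7. Psma5 had low signal, between 2.23 and 2.93 on the AML arrays, and its fall (-0.32, limma adjusted p = 0.0445) was just inside the threshold. Of the 4 other beta subunits 3 fell, with Psmb2 at -1.26 ± 0.12 (5.98e-08). Psmb2 was 6.99, 7.03 and 7.08 in AML control and 5.78, 5.58 and 5.95 in AML Dox, without overlap. Psmb1 rose by 0.23 ± 0.08 (0.0186), a call that was lost without AML control replicate 2 (0.086) or AML Dox replicate 3 (0.0769), and when each array was centred on its median (0.158). In the compound groups few core subunits passed the test: Psma3, Psma7 and Psmb4 fell in AML compound, by 0.23, 0.26 and 0.32.

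The regulatory particle fell as a whole in AML Dox, as did the alpha subunits and the constitutive active subunits. All 6 ATPases, the motor ring that unfolds substrate, fell, with changes from -0.57 (Psmc2) to -1.28 (Psmc5), and all 11 non-ATPase subunits fell, from -0.24 (Psmd8) to -1.47 (Psmd7), with a median of -0.93. Psmd7, part of the pair that removes ubiquitin chains, was 9.03, 9.08 and 9.02 in AML control, 7.46, 7.70 and 7.57 in AML Dox, 9.06, 9.06 and 9.11 in LSK control and 8.78, 8.99 and 8.88 in LSK Dox. It fell by 1.47 ± 0.09 in AML Dox, a 2.76-fold fall (limma adjusted p = 1.28e-10), and the difference between the 2 controls did not pass the test (-0.03 ± 0.09). Psmd3, a scaffold subunit, fell by 1.34 ± 0.10 in AML Dox (4.91e-09) and by 0.33 ± 0.10 in LSK Dox (0.0323), the latter lost without any 1 of LSK control replicates 1 or 3 or LSK Dox replicates 2 or 3. Psmd11, another scaffold subunit, fell by 1.02 ± 0.10 in AML Dox (1.53e-07) and by 0.37 ± 0.10 in LSK Dox (0.016), the latter lost without LSK control replicate 3 (0.0697) or LSK Dox replicate 1 (0.055). Psmd14, the deubiquitinase that pairs with Psmd7, fell by 0.65 ± 0.07 in AML Dox (5.45e-07) and rose by 0.30 ± 0.08 in LSK compound (0.00798).

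In AML compound the regulatory particle held 14 of the 22 falls, as all 6 ATPases and 8 of 11 non-ATPase subunits fell and 1 rose. Psmc5 was 6.83, 6.64 and 6.77 in AML control, 5.75, 5.98 and 5.67 in AML compound and 5.41, 5.53 and 5.47 in AML Dox. It fell by 0.95 ± 0.09 in AML compound (limma adjusted p = 4.58e-07), the largest fall of any member there. The subunit that rose was Psmd8, at 8.64, 8.78 and 8.76 in AML control and 8.96, 9.08 and 9.02 in AML compound, a rise of 0.30 ± 0.08 (0.00705). Psmd8 also rose in LSK compound, from 8.86, 8.84 and 8.83 to 9.46 and 9.38 (0.58 ± 0.09, 5.04e-05), and fell in AML Dox (-0.24 ± 0.08, 0.0146). In LSK compound the falls included Psmd6 (-0.41 ± 0.09, 0.00161).

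**Figure D3:**
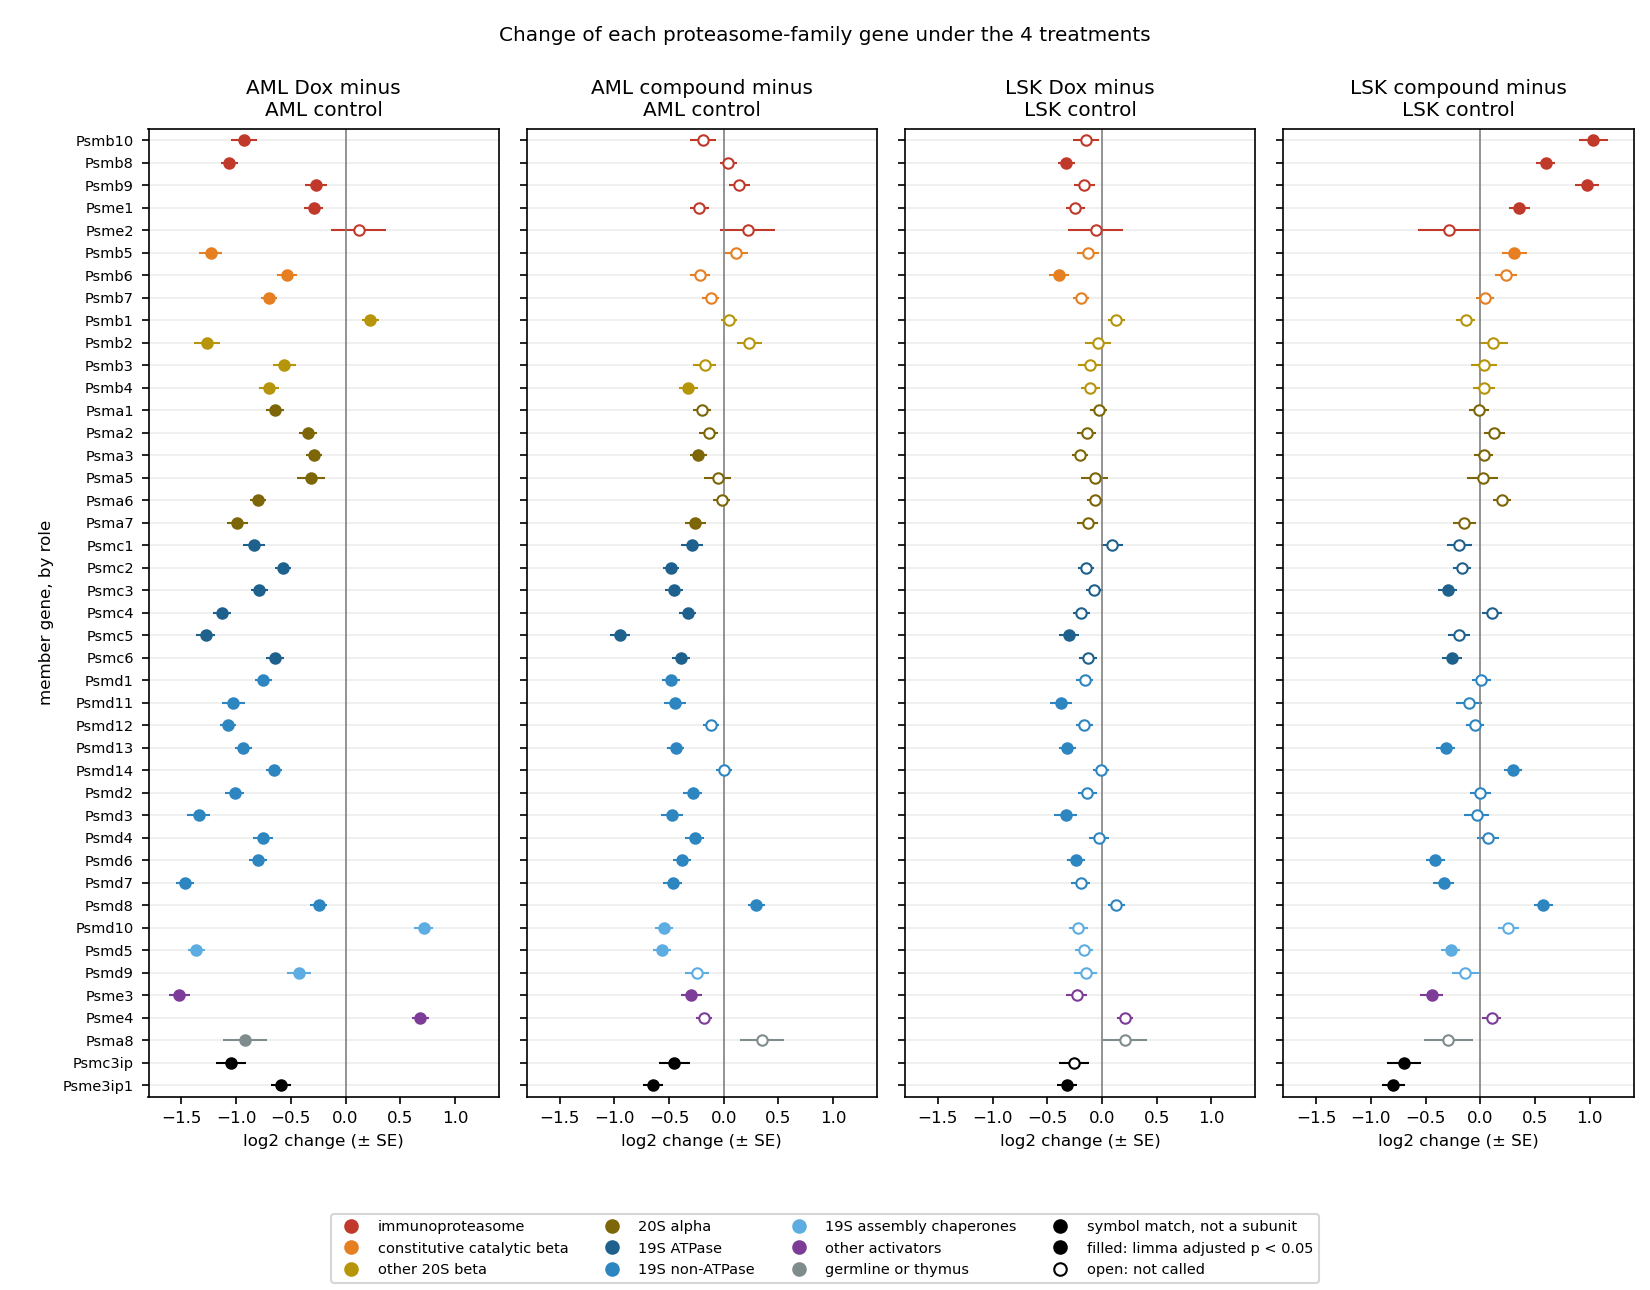
Log2 change from the control of the same cell type for each member that passed the filter, ordered by role, in the 4 treated groups, with filled points for limma adjusted p under 0.05 and bars for the SE. In AML Dox all members but Psmb1, Psmd10, Psme4 and Psme2 lie below 0, and in LSK compound Psmb8, Psmb9 and Psmb10 stand above the rest with Psmd8.

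The chaperones that assist in assembling the regulatory particle did not move together. Psmd5 was 8.44, 8.48 and 8.51 in AML control, 7.14, 7.11 and 7.10 in AML Dox, 7.89, 7.99 and 7.85 in AML compound and 7.67 to 7.79 in LSK Dox, against 7.99, 7.78 and 7.89 in LSK control. It fell by 1.36 ± 0.08 in AML Dox (limma adjusted p = 1.21e-10) and by 0.57 ± 0.08 in AML compound (2.97e-05). Psmd10, also known as gankyrin, was 6.49, 6.34 and 6.38 in AML control, 7.02, 7.17 and 7.16 in AML Dox and 5.93, 5.87 and 5.76 in AML compound. It rose by 0.71 ± 0.09 in AML Dox (1.5e-06) and fell by 0.55 ± 0.09 in AML compound (9.72e-05), so that the 3 AML groups did not overlap. Psmd9 fell in AML Dox (-0.42 ± 0.11, 0.00316).

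The activators outside the interferon response went opposite ways in AML Dox. Psme3, which forms a nuclear activator ring, was 7.04, 6.96 and 6.92 in AML control, 5.46, 5.52 and 5.38 in AML Dox, 6.99, 6.94 and 6.96 in LSK control, 6.69, 6.76 and 6.74 in LSK Dox and 6.61 and 6.43 in LSK compound. It fell by 1.52 ± 0.10, a 2.86-fold fall, in AML Dox (limma adjusted p = 3.42e-10), the largest fall of any member, and by 0.44 ± 0.11 in LSK compound (0.00323), the latter lost without LSK compound replicate 3 (0.0628). Psme4, a large single-chain activator, was 7.51, 7.52 and 7.50 in AML control, 8.17, 8.27 and 8.15 in AML Dox and 6.78, 6.76 and 6.76 in LSK control. It rose by 0.68 ± 0.08 in AML Dox (5.56e-07) and was higher by 0.75 ± 0.08 in AML than in LSK control (6.9e-07). Among the members that match by symbol only, Psme3ip1 fell in all 4 treated groups, by 0.59, 0.65, 0.32 and 0.79 in AML Dox, AML compound, LSK Dox and LSK compound, and Psmc3ip fell by 1.05, 0.45 and 0.69 in AML Dox, AML compound and LSK compound.

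Between the controls, AML cells had higher levels of 15 members. The 2 controls also differed in Xist, at 2.38 to 2.63 in AML and 9.28 to 9.56 in LSK, with the 3 Y-linked genes at 2.27 or below in both, and the part of this in the differences was not tested. The largest difference was that of Psma8, the testis form of an alpha subunit, at 4.58, 4.47 and 4.09 in AML control and 2.85, 3.07 and 3.31 in LSK control (1.30 ± 0.20, limma adjusted p = 7.79e-05), at low signal in both. Psme4 (0.75), Psmd2 (0.60 ± 0.09, 3.89e-05) and Psmd5 (0.59 ± 0.08, 1.86e-05) followed. All 3 regulatory-particle chaperones were higher in AML, and none of the 6 alpha subunits was called, nor had an unadjusted p under 0.05. The immunoproteasome genes were mixed: Psmb9 was higher (0.34 ± 0.10, 0.0111, or 0.0543 without AML control replicate 3), whereas Psme1 and Psmb10 were lower, with Psmb10 at -0.39 ± 0.12 (0.0192). The latter call was lost without AML control replicate 1 (0.0678) or LSK control replicate 2 (0.0619).

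Factors that assemble the proteasome or bind to it changed in both directions in AML Dox, where 11 of 19 fell and 5 rose, beside 25.6% and 23.0% of all genes. The core assembly chaperones Psmg1 (-2.09 ± 0.10, limma adjusted p = 1.4e-11) and Psmg2 (-1.77 ± 0.09, 1.59e-11) and the deubiquitinase Uchl5 (-2.74 ± 0.10, 4.37e-13) fell more than any subunit. Zfand5, a proteasome-binding protein, rose by 1.96 ± 0.09 (3.07e-12), and the others that rose, named after their values were seen, were Ecpas (1.12), Akirin2 (1.11), Ubqln2 (0.76) and Sem1 (0.39). In LSK Dox, where few subunits changed, Zfand5 rose by 0.68 ± 0.09 (1.77e-05). Among regulators, Nfya and Nfyb, subunits of the CCAAT-binding factor, fell in AML Dox by 1.18 ± 0.09 and 0.80 ± 0.15. In LSK compound 6 of the 19 factors fell and 2 rose, and 20% of all genes fell and 14.2% rose. Nfe2l1, which drives subunit genes when proteolysis is blocked, rose by 0.53 ± 0.10 (0.000415).

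The Dox response differed between the cell types for most members. The change in AML minus the change in LSK passed the test for 33 of 43 members, lower in AML for 31 and higher for 2 (21.5% and 18.6% of all genes, 40.1% in all), with a median difference of -0.61 beside 0.00 for all genes. All 6 ATPases and all 11 non-ATPase subunits were among the 31. With all 18 arrays 5 members passed. The largest differences were those of Psme3 (-1.29 ± 0.13, limma adjusted p = 5.6e-07), Psmd7 (-1.27 ± 0.12, 1.73e-07), Psmb2 (-1.23 ± 0.17, 1.12e-05) and Psmd5 (-1.20 ± 0.11, 1.41e-07). Psmd10 (0.93 ± 0.12, 7.26e-06) and Psme4 (0.47 ± 0.11, 0.00167) were higher in AML. Within the immunoproteasome, Psmb8 (-0.73 ± 0.11, 3.73e-05) and Psmb10 (-0.78 ± 0.17, 0.00112) passed, whereas the intervals of Psmb9 (-0.39 to 0.18) and Psme1 (-0.30 to 0.21) included 0.

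**Figure D4:**
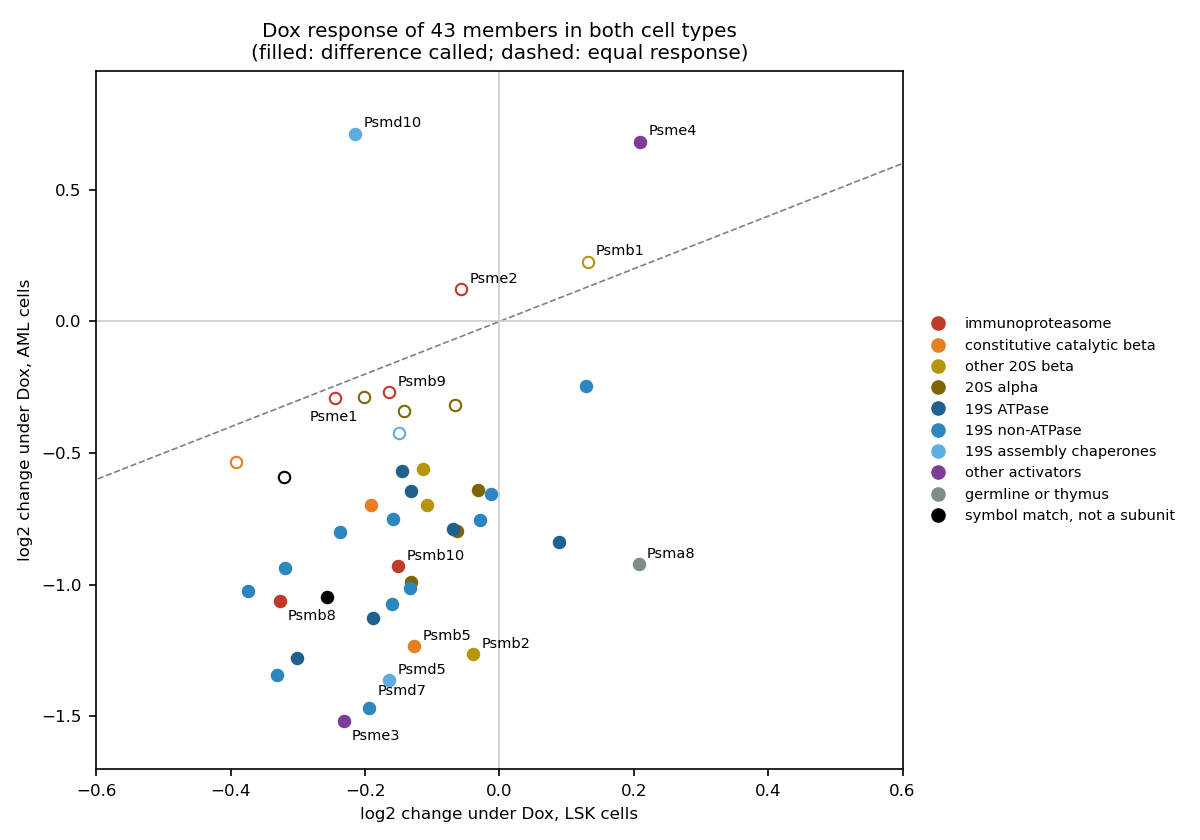
Log2 change under Dox in LSK cells (horizontal axis) and in AML cells (vertical axis) for the 43 members, coloured by role, with the dashed line at equal responses and filled points where limma's adjusted p for the difference was under 0.05. The LSK changes lie between -0.39 and 0.21, and the AML changes between -1.52 and 0.71. Psmd10 and Psme4, both called, lie above the line, as do Psmb1 and Psme2, which are not called. The regulatory particle lies below it.

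The compound response differed for fewer members, 9 of 43, all lower in AML (8.37% of all genes were lower and 8.69% higher, 17.1% in all). They included 4 of the 5 immunoproteasome genes: Psmb10 (-1.22 ± 0.18, limma adjusted p = 8.54e-05), Psmb9 (-0.83 ± 0.14, 0.000455), Psme1 (-0.58 ± 0.13, 0.0039) and Psmb8 (-0.56 ± 0.12, 0.00272). The others were Psmd10 (-0.80 ± 0.13, 0.00023), Psmc5 (-0.76 ± 0.14, 0.000657), Psmb6 (-0.45 ± 0.14, 0.0312), Psmc4 and Psmd1. The call of Psmb6 was lost without any 1 of 7 arrays. With LSK compound replicate 1 included limma called 0 members, and 0 had an unadjusted p under 0.05.

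Set against each other, Dox and the compounds differed in both cell types. In AML cells 32 members were lower and 2 higher under Dox than under the compounds (24.7% and 23.0% of all genes, 47.7% in all), the lowest being Psmb2 (-1.50 ± 0.12, limma adjusted p = 7.44e-09), Psmb5 (-1.35 ± 0.10, 5.78e-09), Psma8 (-1.27 ± 0.20, 3.84e-05) and Psme3 (-1.22 ± 0.10, 6.82e-09), and the 2 higher ones Psmd10 (1.26 ± 0.09, 1.17e-09) and Psme4 (0.87 ± 0.08, 3.11e-08). In LSK cells 14 were lower and 3 higher (14.3% and 18% of all genes, 32.3% in all), with Psmb10 (-1.18 ± 0.13, 1.67e-06), Psmb9 (-1.14 ± 0.11, 1.94e-07), Psmb8 (-0.92 ± 0.09, 2.14e-07) and Psmb6 (-0.63 ± 0.10, 0.000109) the lowest. The LSK count was 11 in a fit on these groups alone and 9 without LSK compound replicate 3. With all 18 arrays, 8 members were called in AML and 1 in LSK cells.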

How the data were processed

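Gene expression was measured on 18 single-colour arrays of mouse bone marrow cells, and the values used are the log2 signals that the authors deposited, summarised and normalized with RMA per the submitters' processing notes. RMA equalises array distributions, so a shift shared by all genes would not be seen. Its version and the genome build are not stated. Of 41345 probe sets, 23521 map to 1 gene, 1814 map to several and 16010 are unnamed in the platform annotation, and the probe set with the highest mean stood for each of 22180 genes. A gene was tested when it was above the 40th percentile of its array on at least 3 arrays (16337 genes).

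The comparisons used limma 3.58.1 under R 4.3.3, with 1 mean per group, 17 arrays and all groups sharing 1 estimate of spread (11 residual degrees of freedom), and Benjamini-Hochberg adjustment over all genes tested. LSK compound replicate 1 was left out, and all 18 arrays were an alternative. The method was also run on simulated data with independent noise for each gene and no outlying array. That run therefore cannot speak to an array such as LSK compound replicate 1 or to arrays of shared origin. Arrays give no read depth, and their number limits the precision. The values of the 5 immunoproteasome genes and of Psmb5, Psmb6 and Psmb7 are always given, and other members in full where they were among the 4 largest rises or falls of a comparison. From each pathway list up to 4 genes with the smallest p were named in a comparison, so those named are the strongest of their list. The members and lists were chosen with earlier results of these data known. Promoter windows are RefSeq's, for build GRCm38.p6.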

Additional observations from a re-analysis of the deposited data

Results flagged for a closer look

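The response to a treatment differed between AML and LSK cells, by limma's test of the difference itself (AML change minus LSK change, adjusted over all genes), for 17 values of the genes described in full. For Dox, the difference on the log2 scale was -0.78 for Psmb10, -1.23 for Psmb2, -1.11 for Psmb5, -0.51 for Psmb7, -0.73 for Psmb8, 0.93 for Psmd10, -1.20 for Psmd5, -1.27 for Psmd7, -1.29 for Psme3 and 0.47 for Psme4. For the compounds, it was -1.22 for Psmb10, -0.45 for Psmb6, -0.56 for Psmb8, -0.83 for Psmb9, -0.76 for Psmc5, -0.80 for Psmd10 and -0.58 for Psme1. Psmb10, Psmb8 and Psmd10 are in both lists, and Psmd10 has opposite signs in them. The 2 lists share the control arrays of both cell types. The compound values rest on 2 LSK compound arrays, which also differ from the LSK controls in sex-linked genes, whose part was not tested.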

How the results depend on the processing

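LSK compound replicate 1 was the choice that moved the most. With all 18 arrays the number of members called was 9 in AML Dox, 1 in AML compound, 0 in LSK Dox, 5 in LSK compound, 3 between the controls, 5 for the Dox response and 0 for the compound response of AML minus LSK, 8 for AML Dox against compound and 1 for LSK Dox against compound; for both counts of 0, limma also gave 0 members with an unadjusted p under 0.05. The immunoproteasome difference became 0.80 in LSK compound and -0.74 for the compound response. The direction turned for these members. In LSK compound the log2 changes were -0.046 for Psmb10, -0.45 for Psmb8, -0.54 for Psme1, -0.73 for Psmd8, -0.80 for Psmd14 and -0.83 for Psmb5. For LSK Dox against compound they were 1.46 for Psma3, 0.046 for Psma6, 0.12 for Psmb8, 0.29 for Psme1, 0.47 for Psmb6, 0.70 for Psmb5, 0.79 for Psmd14, 0.86 for Psmd8, 1.13 for Psmb7 and 1.58 for Psma2. For the compound response they were 0.31 for Psme1, 0.49 for Psmb8, 0.64 for Psmb6 and 1.14 for Psmd1.

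Apart from leaving out 1 array, the counts in the other settings stayed within 1.5 times, with 2 exceptions. These were 14 for the compound response when low values were set to the filter level and 11 for LSK Dox against compound in a fit on those groups alone. Leaving out 1 array moved the counts of LSK Dox, LSK compound and LSK Dox against compound by over 1.5 times in some cases. Quantile normalization moved the immunoproteasome difference of LSK Dox against compound to -0.76. Leaving out 1 array at a time gave 39 to 41 members in AML Dox, 18 to 23 in AML compound, 4 to 6 in LSK Dox, 9 to 14 in LSK compound, 15 to 17 between the controls, 32 to 33 for the Dox response, 7 to 10 for the compound response, 33 to 36 for AML Dox against compound and 9 to 14 for LSK Dox against compound. The immunoproteasome difference ranged from 0.43 to 0.52, 0.28 to 0.38, -0.090 to 0.034, 0.59 to 0.65, -0.41 to 0.11, 0.46 to 0.57, -0.46 to -0.32, 0.0025 to 0.12 and -0.88 to -0.76 in the same order; between the controls it was 0.11 without LSK control replicate 2. The cause of these shifts was not tested.

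A replicate block gave 41, 22, 7, 14, 17, 33, 10, 34 and 14 members in that order. The labels state no shared origin for arrays with the same replicate number. Of 40 same-numbered pairs 1 had deviations correlated above 0.1 (range -0.11 to 0.10). No sign of pairing was therefore seen, but with so few arrays per group this check cannot exclude it. The samples were treated as unpaired in the main fit. The replicate block moved no count by over 1.5 times.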
